A study of Mus musculus with 50 samples.

Results

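The loss of Stat6 was compared between the trachea and the whole lung of mice whose lungs carried IL-13. The quantity was an interaction, the Stat6 effect in tracheal perfusate minus the Stat6 effect in whole lung, where the Stat6 effect is Stat6+/- minus Stat6-/-. It drew on 20 of the 50 arrays of the series, chosen by their titles: 5 Stat6+/- and 5 Stat6-/- arrays of RNA washed out of the trachea (perfusate), and 5 of each genotype from whole lung. All 20 arrays came from groups labelled IL13, so a group with Stat6 contrasts and no IL-13 was not part of the comparison. The labels give neither the strain, age or sex of the animals, nor how IL-13 was supplied, and nothing in them says that the arrays of a group came from separate animals. The p-values therefore speak to the spread among these samples only, and that spread may be technical. Each value is a log2 ratio of the sample to a reference RNA, centred on the median of its array. Perfusate arrays used reference preparations 1.1 to 1.5, each with 1 array of both genotypes, and whole lung arrays used reference pool 3 or 4, so levels were not set across the tissues and only differences between genotypes were. The perfusate RNA had gone through 1 round of amplification, which 3 labels of preparation 1.3 do not state, and the lung RNA had not. Tissue, reference and amplification cannot be told apart in these data.

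IL-13 is a type 2 cytokine, released by helper T cells and innate lymphoid cells. It binds a receptor of the Il4ra and Il13ra1 chains, whose kinases phosphorylate Stat6, and Stat6 dimers then bind DNA at a palindrome, TTC and GAA separated by 4 bases. In the airway epithelium this pathway is known for turning secretory cells into mucous cells, and in macrophages for the state called alternative activation, marked by arginase 1 and mannose receptor. A wash of the trachea samples mainly the surface of the large airway, and a whole lung holds airways, alveoli, vessels and their leukocytes.

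The Stat6 probe itself did not separate the genotypes. In perfusate its centred log2 ratios were 1.07, 0.10, 1.28, 0.27 and 0.52 on the Stat6+/- arrays and 1.08, 0.36, 1.32, 0.33 and 0.67 on the Stat6-/- arrays. In whole lung they were -0.82, -1.14, -1.37, -0.76 and -0.22 with the allele and -0.92, -0.42, -0.58, -0.64 and -0.82 without it. The groups overlapped in both tissues, and the tissue difference was 0.08 with a 95% interval of -0.51 to 0.68 (limma adjusted p = 0.92). Where the probe lies relative to the deleted part of the gene was not known, so it checks nothing about the labels. Il13 was higher than in PBS perfusate by 2.72 ± 0.28 (SE) on Stat6-/- and by 1.74 ± 0.28 on Stat6+/- perfusate arrays.

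Arrays held 15719 to 18655 spots with a value. Their number limits the precision. The Y-linked gene Eif2s3y (probe NM_012011) was low on 5 Stat6-/- arrays, at -3.45 to -1.93 on perfusate replicates 10, 11 and 12, against about 0 to 1.28 on the other perfusate arrays, and at -3.16 and -3.06 on lung replicates 1 and 2 against -0.71 to 0.01 on the others. No Stat6+/- array was low by this probe, and a second Eif2s3y probe (AK012186) did not set the perfusate arrays apart. Xist, expressed from the inactive X chromosome of females, was -0.33 to 0.91 on the 3 perfusate arrays of low Y-linked signal against -5.70 to -1.36 on the other 7. In lung Xist was 7.35 on the 1 low array that measured it, against -3.15 to 2.07 on the 5 others with a value. In lung the Y-linked gene Uty was -4.35 to -3.66 on the 2 low arrays against -0.61 to 0.38 on the other 8. In perfusate Uty overlapped, at -2.10 to -0.93 on the low arrays against -0.98 to 0.15. Kdm5d, also Y-linked, did not set the low arrays apart in either tissue. Its perfusate values were -0.03 to 0.25 on the low arrays against -1.51 to 1.01, and its lung ranges overlapped too. The labels give no sex. The whole lung Stat6+/- arrays also spread more widely over probes, with a median absolute deviation of 0.48 to 0.96 against 0.34 to 0.61 on the Stat6-/- lung arrays. Counts without the arrays of low Y-linked signal, with that signal as a covariate and with equal array spreads are given beside the results.

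Of 15370 probes tested, 662 (4.31%) differed between the tissues in their Stat6 effect at a limma adjusted p under 0.05. The effect in perfusate lay below that in lung for 470 probes (3.06%) and above it for 192 (1.25%). Within perfusate 239 probes (1.55%) passed the same threshold, 83 higher (0.54%) and 156 lower (1.01%) with the Stat6 allele. Within whole lung 2066 passed (13.4%), 1208 higher (7.86%) and 858 lower (5.58%). The split of the tissue difference rested on the centring. Centring removed a shift of 0.49 from it, made of 0.12 in perfusate and -0.37 in whole lung, and the values as deposited gave 373 calls, of which 270 were higher and 103 lower. After centring the median over all probes was 0.02 for the tissue difference, -0.02 for the perfusate effect and -0.04 for the lung effect. All differences are relative to those removed shifts. Without the 5 arrays of low Y-linked signal 226 probes were called, 57 higher and 169 lower, and 208 of them were among the 662. All 5 left-out arrays were Stat6-/-, 3 from perfusate and 2 from lung, and the minimum number of values per group was relaxed for that fit. For calls lost there, the smaller number of Stat6-/- arrays and the Y-linked signal cannot be told apart. With all arrays kept and the low Y-linked signal as a covariate 642 were called, 193 higher and 449 lower, and 609 of them were among the 662. The 1 variance per probe used for both tissues covers residual SDs whose medians were 0.36 in perfusate and 0.53 in lung. With a variance for each tissue 486 probes differed, the Stat6 effect in perfusate was called for 509 and the Stat6 effect in whole lung for 809.

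**Figure D1:**
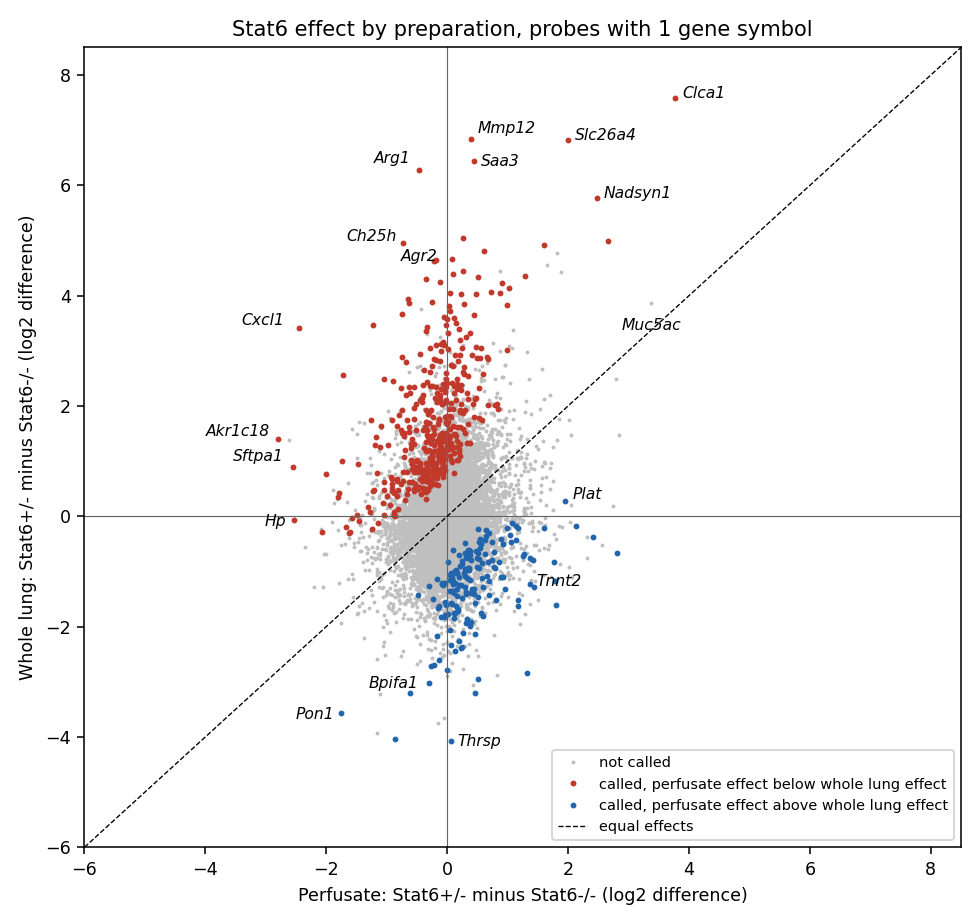
Stat6 effect in whole lung (vertical axis) against the Stat6 effect in perfusate (horizontal axis), both as log2 differences, for probes with 1 gene symbol; red and blue points were called for the tissue difference and the dashed line marks equal effects. Most red points lie along the vertical axis, such as Arg1 at -0.47 and 6.28, whereas Muc5ac lies near the line at 3.38 and 3.87.

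Among the 470 lower probes, 393 rose with the Stat6 allele in whole lung and were not called in perfusate. A further 34 fell in perfusate and were not called in lung, 15 fell in perfusate and rose in lung, 4 rose in both, and 24 were called in neither. Among the 192 higher probes, 148 fell in lung and were not called in perfusate. Another 20 rose in perfusate and were not called in lung, 4 rose in perfusate and fell in lung, 1 (Pon1) fell in both, and 19 were called in neither. The lung effect was the larger in size for 411 of the 470 and for 152 of the 192. These classes rest on the calls of the main fit, with 1 variance per probe for both tissues. With a variance for each tissue more probes were called in perfusate and fewer in lung, as given above. The classes were not recounted there, so not called in perfusate does not mean no effect in perfusate. The scatter of the effects shows these classes as vertical bands beside the axis.

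Genes of macrophages held the most lower differences of the 30 lists. Over all 12051 genes with a symbol, 439 had a lower tissue difference and 166 a higher one. The counts of every list below are to be read beside that share. Of 22 measured genes of macrophages and lysosomes, 14 had a lower tissue difference and 0 a higher one, with a median of -2.16, where the median over all genes with a symbol was close to 0. In whole lung 15 of the 22 rose with the Stat6 allele, with a median effect of 2.17. In perfusate 0 rose and 1 fell (Cd36), with a median of -0.04. Without the arrays of low Y-linked signal 9 were called. In bulk RNA fewer cells of a type and less RNA per cell cannot be told apart.

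Mmp12, the elastase of macrophages, reached 3.99, 7.83, 6.89, 7.75 and 7.77 on the lung Stat6+/- arrays. On the lung Stat6-/- arrays it was 0.88, 0.43, -0.34, -0.01 and -0.96. In perfusate it was 0.50, -0.20, -0.05, -0.14 and 1.12 with the allele and -0.01, 0.03, 0.24, -0.82 and -0.19 without it. The groups were apart in lung and overlapped in perfusate. Its effects were 6.85 ± 0.76 in lung and 0.39 ± 0.76 in perfusate, a difference of -6.45 ± 1.08 (adjusted p = 0.00029). Cd68, a protein of macrophage lysosomes, was 2.23, 3.91, 2.43, 3.61 and 2.89 on the lung Stat6+/- arrays against -0.48, 0.31, -0.08, 0.06 and -0.32 on the Stat6-/- arrays. In perfusate all 10 of its values lay between -0.06 and 0.76. The tissue difference of Cd68 was -3.21 ± 0.32 (adjusted p = 9.12e-08). Within lung reference pools 3 and 4 its effects were 2.54 and 3.50, and within the 5 perfusate preparations they ran from -0.53 to 0.29.

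The lysosomal proteases moved with it. Cathepsin K (Ctsk), an elastase and collagenase, rose by 4.82 in lung against an effect of 0.60 in perfusate, a difference of -4.21 ± 0.39 (adjusted p = 3.97e-08). Cathepsins D, B, S, L and Z (Ctsd, Ctsb, Ctss, Ctsl, Ctsz) had lung effects of 2.49, 2.07, 2.55, 2.61 and 2.34 and perfusate effects of -0.01, -0.16, 0.34, 0.27 and 0.20. All 5 were called for the difference. Ctsl and Ctss lost the call without the arrays of low Y-linked signal and on the uncentred values, and Ctsz with equal array spreads. Gpnmb, a glycoprotein of lipid-laden macrophages, had effects of 4.65 in lung and -0.18 in perfusate. The integrin Itgax (CD11c), carried by lung macrophages and dendritic cells, had effects of 3.16 and -0.07. Marco and Adgre1, receptors of the same cells, had lung effects of 2.28 and 1.14, of which that of Marco passed, and neither passed for the tissue difference.

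Genes that IL-4 and IL-13 are known to induce in macrophages followed the same order. Of 18 measured, 9 had a lower difference and 0 a higher one, with a median of -2.11, and 14 rose in lung while 0 were called in perfusate. Without the arrays of low Y-linked signal 6 were lower, as on the uncentred values. Arginase 1 (Arg1), which breaks down arginine, had the largest tissue difference of any gene called, -6.74 ± 0.71 (adjusted p = 3.13e-07). Its values were 7.59, 5.07, 6.52 and 4.55 on the 4 lung Stat6+/- arrays that measured it, against 0.38, -0.84, -0.11, -0.17 and -0.33 without the allele. In perfusate it was -1.70, -1.01, -1.38, -0.68 and -0.53 with the allele and -0.86, -0.69, -0.09, -0.44 and -0.88 without it. The lung groups were apart and the perfusate groups overlapped. The lung effect of 6.28 corresponds to 77.5-fold. Slc7a2, a transporter that brings arginine into the cell, had effects of 2.20 in lung and -0.68 in perfusate. Mannose receptor (Mrc1) had effects of 1.86 and -0.31, and it was not called on the uncentred values (adjusted p = 0.083). The lectins Clec7a and Clec10a had lung effects of 3.61 and 2.30 and perfusate effects of -0.06 and 0.23, and both kept the call under every alternative that tested them.

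Retnla (resistin-like alpha), made by alternatively activated macrophages and by airway epithelium, was the least stable of these. It rose in lung by 4.92 ± 0.66 and had a perfusate effect of 1.60 ± 0.66, a difference of -3.31 ± 0.94 (adjusted p = 0.0379). With equal array spreads the difference was -1.32 (adjusted p = 0.636), and leaving out any of 12 arrays ended the call. Pdcd1lg2 (PD-L2), an inhibitory ligand for T cells, had effects of 3.89 in lung and -0.26 in perfusate, and the Pdcd1lg2 tissue difference lost the call without the arrays of low Y-linked signal (-3.90, adjusted p = 0.121). Ccl17, Ccl22 and Tgm2, other targets of the pathway, had lung effects of 0.87, 2.29 and 1.35, and none was called for the difference.

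**Figure D2:**
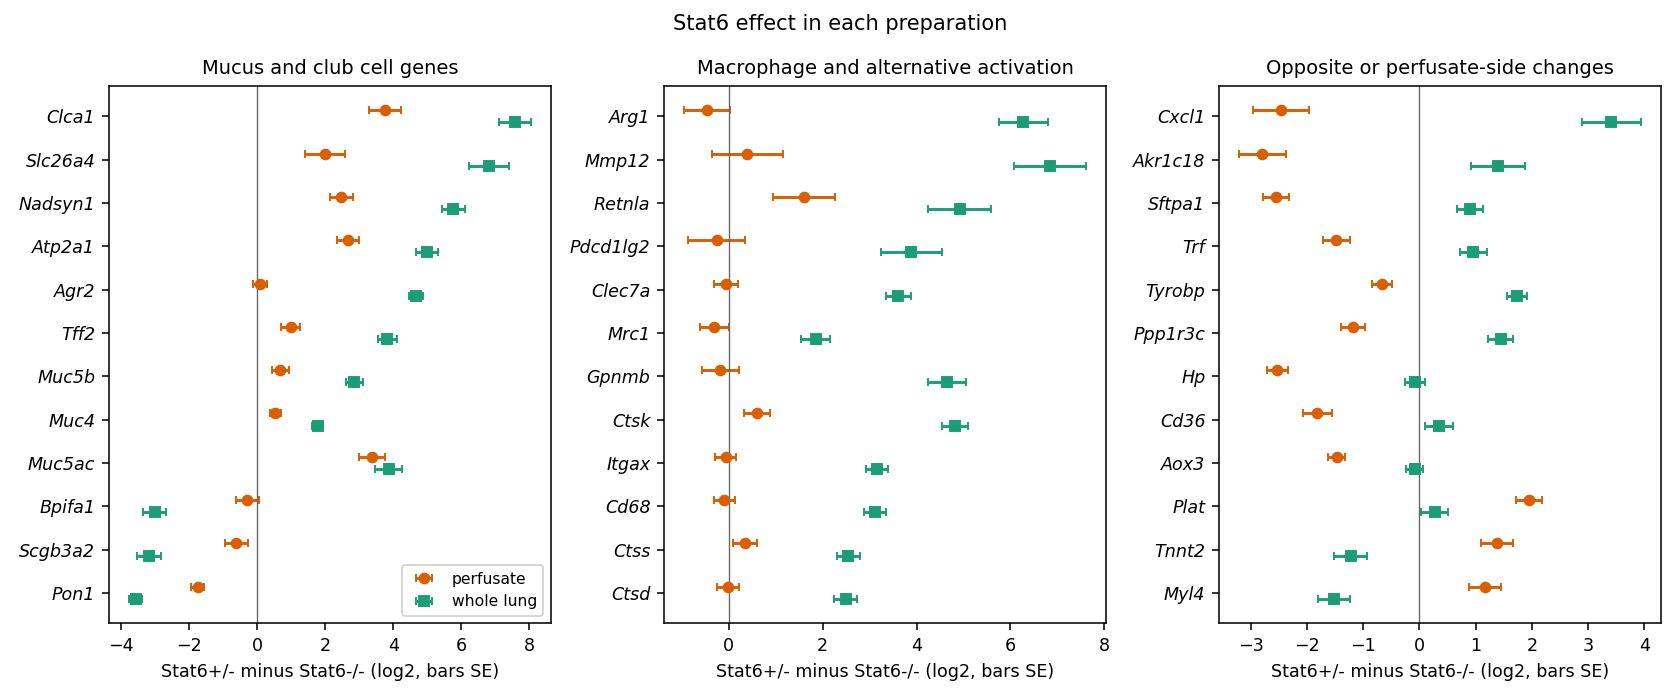
Stat6 effect (Stat6+/- minus Stat6-/-, log2) in perfusate (circles) and whole lung (squares) for named genes in 3 panels, with bars for the standard error of the fit. In the macrophage panel lung effects run from 1.86 (Mrc1) to 6.85 (Mmp12) while perfusate effects reach at most 1.60 (Retnla), in the mucus panel Clca1 and Muc5ac rise in both preparations, and in the right panel the effects of Cxcl1, Sftpa1 and Akr1c18 take opposite signs.

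The promoter windows of these genes were read because Stat6 binds a known palindrome. Windows run from 250 bases before to 50 after an annotated start (RefSeq, GRCm38.p6). The Stat6 palindrome, TTC and GAA with any 4 bases between, reads the same on both strands and was in 6.95% of all 32851 windows. By gene it was present for 6.78% of the genes tested, for 29 of the 358 genes (8.1%) called lower that have a window, and for 9 of the 132 (6.82%) called higher. The palindrome of other Stat proteins, with any 3 bases between, was present for 8.43% of genes tested, 8.1% of those lower and 4.55% of those higher. Of 140 named genes called, 107 had a window and 9 of them held the Stat6 palindrome. The 5 with the largest differences are shown, to place the palindrome beside genes described above. They are Pdcd1lg2 (chr19:29410669-29410968, plus strand), Clec7a (chr6:129472730-129473029, minus strand), Retnla (chr16:48842359-48842658, plus strand), Itgax (chr7:128129300-128129599, plus strand) and Tbxas1 (chr6:38918736-38919035, plus strand), and the capitals mark the palindrome, which starts at -82, -131, -145, -127 and -121 relative to the start of the transcript.
Pdcd1lg2: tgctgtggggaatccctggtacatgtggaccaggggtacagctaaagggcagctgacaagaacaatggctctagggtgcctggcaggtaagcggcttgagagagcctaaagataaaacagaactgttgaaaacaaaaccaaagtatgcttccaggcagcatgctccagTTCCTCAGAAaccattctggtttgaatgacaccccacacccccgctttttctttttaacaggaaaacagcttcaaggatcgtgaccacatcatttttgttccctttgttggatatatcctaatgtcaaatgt
Clec7a: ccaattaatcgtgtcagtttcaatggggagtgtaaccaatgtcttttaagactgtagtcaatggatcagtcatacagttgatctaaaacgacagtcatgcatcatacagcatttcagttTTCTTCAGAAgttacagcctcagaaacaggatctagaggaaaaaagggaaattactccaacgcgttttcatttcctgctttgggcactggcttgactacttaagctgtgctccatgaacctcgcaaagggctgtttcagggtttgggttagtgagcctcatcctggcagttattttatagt
Retnla: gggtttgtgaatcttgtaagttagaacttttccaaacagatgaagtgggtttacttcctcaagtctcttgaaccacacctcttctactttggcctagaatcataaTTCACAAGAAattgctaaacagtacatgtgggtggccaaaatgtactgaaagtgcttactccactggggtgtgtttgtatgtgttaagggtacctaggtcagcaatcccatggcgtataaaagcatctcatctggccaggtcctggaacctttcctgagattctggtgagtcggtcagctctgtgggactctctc
Itgax: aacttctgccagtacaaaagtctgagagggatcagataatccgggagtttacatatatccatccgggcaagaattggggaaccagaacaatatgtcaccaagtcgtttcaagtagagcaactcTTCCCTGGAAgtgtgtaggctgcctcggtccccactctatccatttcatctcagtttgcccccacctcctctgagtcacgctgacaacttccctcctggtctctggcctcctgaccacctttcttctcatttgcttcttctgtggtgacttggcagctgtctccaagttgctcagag
Tbxas1: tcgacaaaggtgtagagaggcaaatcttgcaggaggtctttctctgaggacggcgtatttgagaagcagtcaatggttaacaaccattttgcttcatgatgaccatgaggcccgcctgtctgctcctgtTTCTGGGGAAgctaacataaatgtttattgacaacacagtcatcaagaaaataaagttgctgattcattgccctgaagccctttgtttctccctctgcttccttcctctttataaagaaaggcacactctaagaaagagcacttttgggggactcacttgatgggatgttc
A match of letters is a description and not a binding site. Tbxas1, thromboxane synthase, had effects of 2.66 in lung and -0.39 in perfusate.

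Chemokines gave 10 lower and 0 higher differences among 26 measured, with a median of -1.57. The number was 7 without the arrays of low Y-linked signal and 4 with equal array spreads. In lung 14 rose and 1 fell, and in perfusate 0 rose and 2 fell. Cxcl1, which attracts neutrophils, moved in opposite directions. It was 4.80, 4.81, 4.02 and 3.24 on the 4 lung Stat6+/- arrays that measured it and 0.78, 0.18, 0.72, 1.43 and 1.18 without the allele. In perfusate it was -2.50, -3.67, -0.90, -2.70 and -1.74 with the allele and 1.32, -1.60, 0.76, 0.67 and -0.38 without it. The lung groups were apart, and in perfusate the groups overlapped through Stat6-/- replicate 11. It rose by 3.42 ± 0.52 in lung and fell by 2.46 ± 0.49 in perfusate, a difference of -5.87 ± 0.72 (adjusted p = 3.37e-06). The related Cxcl2 and Cxcl5 had lung effects of 2.48 and 2.56 and perfusate effects of -1.04 and -1.72. Only the lung effects passed the test, and both genes lost the call for the difference with equal array spreads. The monocyte and eosinophil attractants Ccl3, Ccl6, Ccl9, Ccl2 and Ccl11 (eotaxin) rose in lung by 4.30, 3.50, 2.85, 4.04 and 3.24, and their perfusate effects ran from -0.35 to 0.88. The calls of Ccl3, Ccl6 and Ccl9 held under every alternative, and Ccl2 and Ccl11 lost theirs with equal array spreads (adjusted p = 0.275 and 0.3).

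Acute phase and innate defence genes gave 12 lower and 0 higher differences of 19 measured, with a median of -2.15, and 8 of 19 without the arrays of low Y-linked signal. Saa3, an acute phase protein made in the lung, was 6.61, 7.09, 7.82 and 6.66 on the lung Stat6+/- arrays and 1.17, 0.35, 0.66, 1.13 and -0.10 without the allele. In perfusate it ran from -3.51 to 1.47 with the allele and from -2.37 to -0.88 without it. That perfusate spread was wide, with an SD of 2.03 over 5 Stat6+/- arrays, and the groups overlapped. The tissue difference of Saa3 was -6.01 ± 0.79 (adjusted p = 1.11e-05). Chia1, an acidic chitinase, Ltf (lactoferrin) and the lectin Reg3g rose in lung by 4.34, 2.89 and 2.60, with perfusate effects of 0.51, -0.75 and -0.02. The differences of these genes were -3.83 ± 0.37, -3.64 ± 0.44 and -2.63 ± 0.27. Rnase2a, an eosinophil-associated ribonuclease whose close relatives may share the probe's signal, had effects of 5.04 in lung and 0.27 in perfusate. Of the other markers of eosinophils, basophils and mast cells 0 of 15 measured were called for the difference, which is near the 4.31% called over all probes.

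Mucus genes were mixed. Of 21 measured, 9 had a lower difference and 1 a higher one, with a median of -1.08. In contrast to macrophage genes, 6 rose in perfusate as well, and 15 rose in lung. With equal array spreads 2 were lower, and with quantile normalization 4. Agr2, a disulfide isomerase needed for mucin folding, was 4.80, 5.06, 3.49, 5.23 and 3.74 on the lung Stat6+/- arrays against 0.46, -1.19, -0.27, 0.22 and -0.27 without the allele. In perfusate it was 0.72, 0.20, 0.30, 0.26 and 0.11 with the allele and 0.32, 0.22, -0.04, 0.64 and 0.04 without it. The lung groups were apart by more than 3 units and the perfusate groups overlapped. Its difference, -4.59 ± 0.30, had the lowest adjusted p among the genes named here (2.12e-11), and the lung effect was 4.34 within pool 3 and 4.89 within pool 4.

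Clca1, a secreted protein of mucous cells, rose in both tissues. It was 3.18, 1.49, 1.98, 0.73 and 1.52 on perfusate Stat6+/- arrays against -1.80, -1.87, -2.09, -2.05 and -2.13 without the allele, and 6.03, 6.21, 8.59, 7.21 and 6.12 against -0.16, -1.14, -0.46, -1.29 and -0.69 in lung. The genotypes were apart in each tissue. The effects were 3.77 ± 0.47 (13.6-fold) and 7.58 ± 0.47 (192-fold), a difference of -3.82 ± 0.66 (adjusted p = 0.000381) that was -1.45 with equal array spreads (adjusted p = 0.402) and -1.45 with quantile normalization (adjusted p = 0.175). Nadsyn1, an enzyme of NAD synthesis, and Atp2a1, a calcium pump, behaved likewise, with perfusate effects of 2.47 and 2.66 and lung effects of 5.76 and 4.99. Their differences of -3.29 and -2.33 also lost the call under those scalings. Slc26a4 (pendrin), an anion exchanger of the airway surface, rose in lung by 6.82 and had a perfusate effect of 1.99 ± 0.59 (adjusted p = 0.0923). With equal array spreads its difference of -4.83 became -2.30 (adjusted p = 0.0649). The trefoil peptide Tff2 and the mucin Muc5b had lung effects of 3.82 and 2.85 and perfusate effects of 0.98 and 0.68, with differences of -2.84 ± 0.39 and -2.17 ± 0.35. Muc5b lost the call with equal array spreads.

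Muc5ac, the gel-forming mucin of goblet cells, did not differ detectably. It was 2.53, 2.84, 3.43, 1.93 and 3.10 on perfusate Stat6+/- arrays and -1.81, -0.71, -0.42, 0.23 and -0.34 without the allele. In lung it was 3.88, 3.40, 3.26, 4.11 and 1.98 against -0.98, 0.15, -0.37, -1.24 and -0.33. The genotypes were apart in both tissues. The effects were 3.38 ± 0.40 (10.4-fold) and 3.87 ± 0.40 (14.7-fold), and the 95% interval of their difference, -1.64 to 0.65, allows either sign (adjusted p = 0.714). Tff1, another trefoil peptide, had effects of 2.83 in perfusate and 1.47 in lung, where it did not pass, and Scin, an actin-severing protein, had 2.02 and 1.75. Neither was called for the difference.

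**Figure D3:**
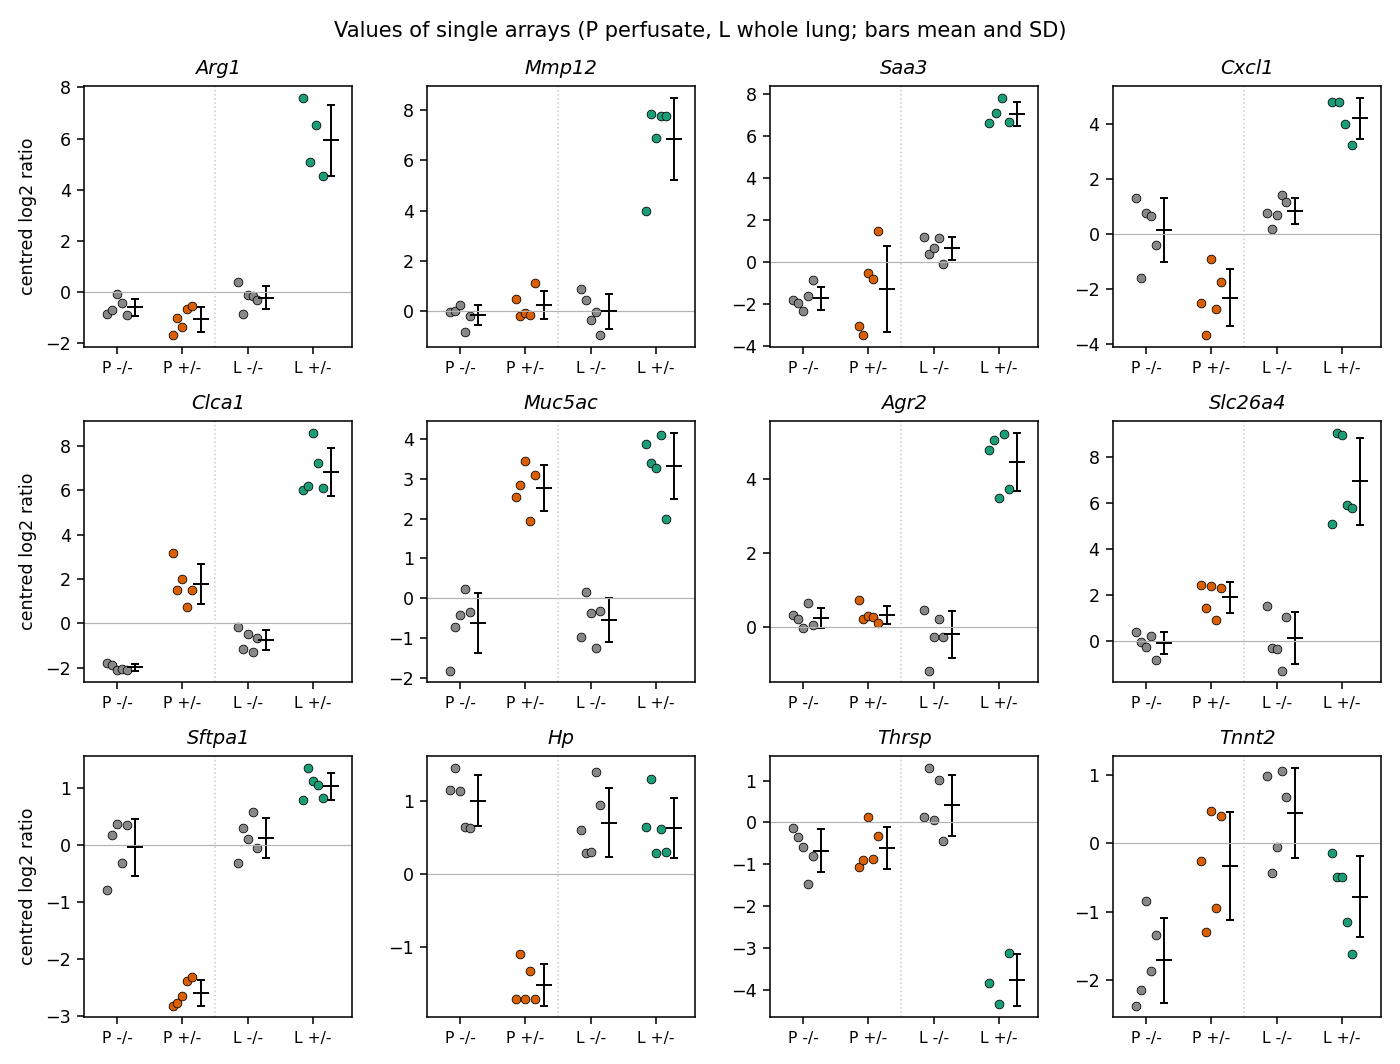
Centred log2 ratios of single arrays for 12 genes, with P for perfusate and L for whole lung, -/- and +/- for the Stat6 genotype, and bars for the mean and SD of the group; ratios are to different references in the tissues, so only the gap between genotypes can be set across them. Arg1, Mmp12, Saa3 and Agr2 separate the genotypes in lung alone, Clca1, Slc26a4 and Muc5ac in both, and Sftpa1, Hp and Cxcl1 have lower Stat6+/- means in perfusate.

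Transport genes of the epithelium gave 4 lower and 1 higher difference of 21, and 2 lower and 0 higher with equal array spreads. Slc5a1, the sodium and glucose cotransporter, and Fxyd4, a regulator of the sodium pump, rose in lung by 3.94 and 4.44, with perfusate effects of -0.64 and 0.26. Scnn1b and Scnn1g, subunits of the epithelial sodium channel, had perfusate effects of -1.58 and -1.56 and lung effects of -1.05 and -1.14, and neither was called for the difference. Genes of ciliated cells gave no call in 15 measured, with a median difference of 0.40, against the 4.31% called over all probes. Foxj1, the master regulator of motile cilia, had a difference of 0.59 (95% interval -0.18 to 1.36). The club cell protein Scgb1a1 had -0.27 (95% interval -1.05 to 0.52).

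Several genes of lung defence and metabolism fell with the Stat6 allele in the trachea. Surfactant protein A (Sftpa1), a collectin that binds microbes, was -2.81, -2.77, -2.64, -2.39 and -2.30 on perfusate Stat6+/- arrays and -0.79, 0.18, 0.38, -0.30 and 0.36 without the allele. In lung it was 0.79, 1.36, 1.13, 1.06 and 0.82 against -0.32, 0.31, 0.12, 0.59 and -0.05. Every Stat6+/- array was lower in perfusate and higher in lung than every Stat6-/- array. It fell by 2.55 ± 0.23 in perfusate and rose by 0.90 ± 0.23 in lung, a difference of -3.45 ± 0.33 (adjusted p = 5.26e-08). Surfactant protein D (Sftpd), the related collectin, rose in lung by 1.63, with a perfusate effect of -0.82 (adjusted p = 0.0783) and a difference of -2.46 ± 0.34. Sftpc, the surfactant protein of alveolar type 2 cells, had a difference of 0.35 (95% interval -0.43 to 1.14). Of 18 alveolar genes, 4 were lower and 0 higher, and 2 were lower without the arrays of low Y-linked signal, on the uncentred values or with equal array spreads.

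Haptoglobin (Hp), which binds free haemoglobin, changed in perfusate and not detectably in lung. It was -1.71, -1.09, -1.72, -1.33 and -1.72 on perfusate Stat6+/- arrays and 1.15, 1.46, 1.15, 0.66 and 0.64 without the allele, whereas lung values ran from 0.29 to 1.31 and from 0.29 to 1.41. The perfusate groups were apart and the lung groups overlapped. It fell by 2.53 ± 0.18 in perfusate, its lung effect was -0.08 ± 0.18, and the difference was -2.45 ± 0.26 (adjusted p = 2.08e-07). Akr1c18, a progesterone-metabolizing reductase, fell in perfusate by 2.79 ± 0.41. Its lung effect of 1.40 ± 0.48 rested on 3 Stat6+/- arrays at -0.04, 1.50 and -0.05, which overlapped with -2.57 to 0.09 on the Stat6-/- arrays (adjusted p = 0.0498). Cd36, a fatty acid receptor, and Aox3, an aldehyde oxidase, fell in perfusate by 1.81 and 1.47, with lung effects of 0.35 and -0.08. Aox3 was not called on the uncentred values (adjusted p = 0.215). Among 35 genes of xenobiotic and glutathione metabolism 7 were lower and 0 higher for the tissue difference. In this list 12 fell in perfusate and 12 in lung. On the uncentred values 1 was lower and 2 higher, and 4 were lower with equal array spreads or without the arrays of low Y-linked signal.

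The other genes that fell in perfusate and rose in lung, with 1 probe unnamed, were Trf, Tyrobp, Ppp1r3c, Sdc4, Bex1, Tnfaip2, Cd302, Igsf8, B4galnt1, Pgm1 and Sf3b3. Trf (transferrin), the iron carrier, had effects of -1.48 ± 0.24 and 0.96 ± 0.24, with genotypes overlapping in each tissue. Tyrobp, the signalling adaptor of myeloid receptors, had effects of -0.67 ± 0.18 and 1.74 ± 0.18. Ppp1r3c, which targets a phosphatase to glycogen, was lower on every Stat6+/- perfusate array, at -1.12 to -0.09 against 0.24 to 0.90, and higher in lung, at 1.24 to 2.50 against -0.32 to 1.01. Its difference was -2.62 ± 0.31 (adjusted p = 1.9e-06). The smallest differences of this class were -1.46 (Sf3b3) and -1.52 (Pgm1), and both lost the call on the uncentred values. Sf3b3 has a second probe (AK017529) that disagreed, with effects of 0.44 in perfusate and 0.20 in lung and a difference of 0.24 (adjusted p = 0.766), so its place in this class rests on 1 probe (BC011412).

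Differences in the other direction came mostly from falls in lung. Bpifa1, a secreted defence protein of the upper airway, was -1.93, -3.64, -2.50, -2.27 and -3.21 on lung Stat6+/- arrays and 0.97, -0.98, 0.64, 0.42 and 0.48 without the allele. In perfusate it ran from -0.43 to 0.26 with the allele and from 0.05 to 0.72 without it. The lung groups were apart and the perfusate groups overlapped. It fell by 3.02 ± 0.34 in lung, and the difference was 2.73 ± 0.48 (adjusted p = 0.000402). Scgb3a2, a secretoglobin of club cells, fell by 3.19 in lung, where 4 Stat6+/- arrays measured it, and had a perfusate effect of -0.61. Its difference of 2.58 ± 0.48 was not called in a fit of the 20 arrays alone (adjusted p = 0.0598). Pon1 (paraoxonase 1) fell in both, by 1.75 in perfusate and by 3.57 in lung. Its difference of 1.82 became 0.84 with equal array spreads (adjusted p = 0.28) and 0.79 with quantile normalization. Thrsp, a protein of lipid synthesis, was -3.83, -4.33 and -3.10 on the 3 lung Stat6+/- arrays that measured it and -0.45 to 1.30 without the allele. Its perfusate effect was 0.07 ± 0.41 and its difference 4.13 ± 0.63 (adjusted p = 0.000107). Fabp1, a fatty acid carrier, fell in lung by 2.17, with a perfusate effect of -0.17.

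Muscle genes gave 3 higher and 0 lower differences of 24, with a median of 0.53. Over all probes 1.25% were higher and 3.06% lower. Tnnt2 (troponin T) and Myl4, a myosin light chain, rose in perfusate by 1.38 ± 0.29 and 1.17 ± 0.29 and fell in lung by 1.22 and 1.52. Myl4 was 1.21, 0.86, 0.97, 0.22 and 0.71 on perfusate Stat6+/- arrays against -0.54, -0.17, 0.15, -0.84 and -0.46, and in lung it ran from -1.90 to -0.08 against -0.31 to 1.75. The perfusate groups were apart and the lung groups overlapped. Myl7, expressed in atrial muscle, fell in lung by 1.75 and had a difference of 2.31 ± 0.59 (adjusted p = 0.0187). That call was lost without perfusate Stat6-/- replicate 13, in a fit of the 20 arrays alone, with no reference block, with the replicate block in lung, without preparation 1.3 and without the arrays of low Y-linked signal. In lung 6 of the 24 muscle genes fell and 1 rose. Hoatz and Rbpms2, which are not in the muscle list, rose in perfusate by 0.77 and 0.57 and fell in lung by 0.65 and 0.50. Endothelial genes gave 2 higher and 0 lower of 24, Tek and Eng, which fell in lung by 1.35 and 1.55. In lung 7 of the 24 endothelial genes fell and 0 rose. Leaving out lung Stat6+/- replicate 1 raised the 2 to 7, leaving out lung Stat6+/- replicate 4 raised it to 5, with equal array spreads 0 were called, and on the uncentred values 5. Plat, the tissue plasminogen activator, rose in perfusate with no call in lung, at 1.35 to 3.16 against -0.42 to 0.66 in perfusate and effects of 1.95 ± 0.24 and 0.27 ± 0.24. The largest higher difference was that of Ngb (neuroglobin), 4.16 ± 1.04 (adjusted p = 0.0187), with perfusate arrays between -2.25 and 2.75 and genotypes that overlapped there. Its call was lost with equal array spreads and with quantile normalization.

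**Figure D4:**
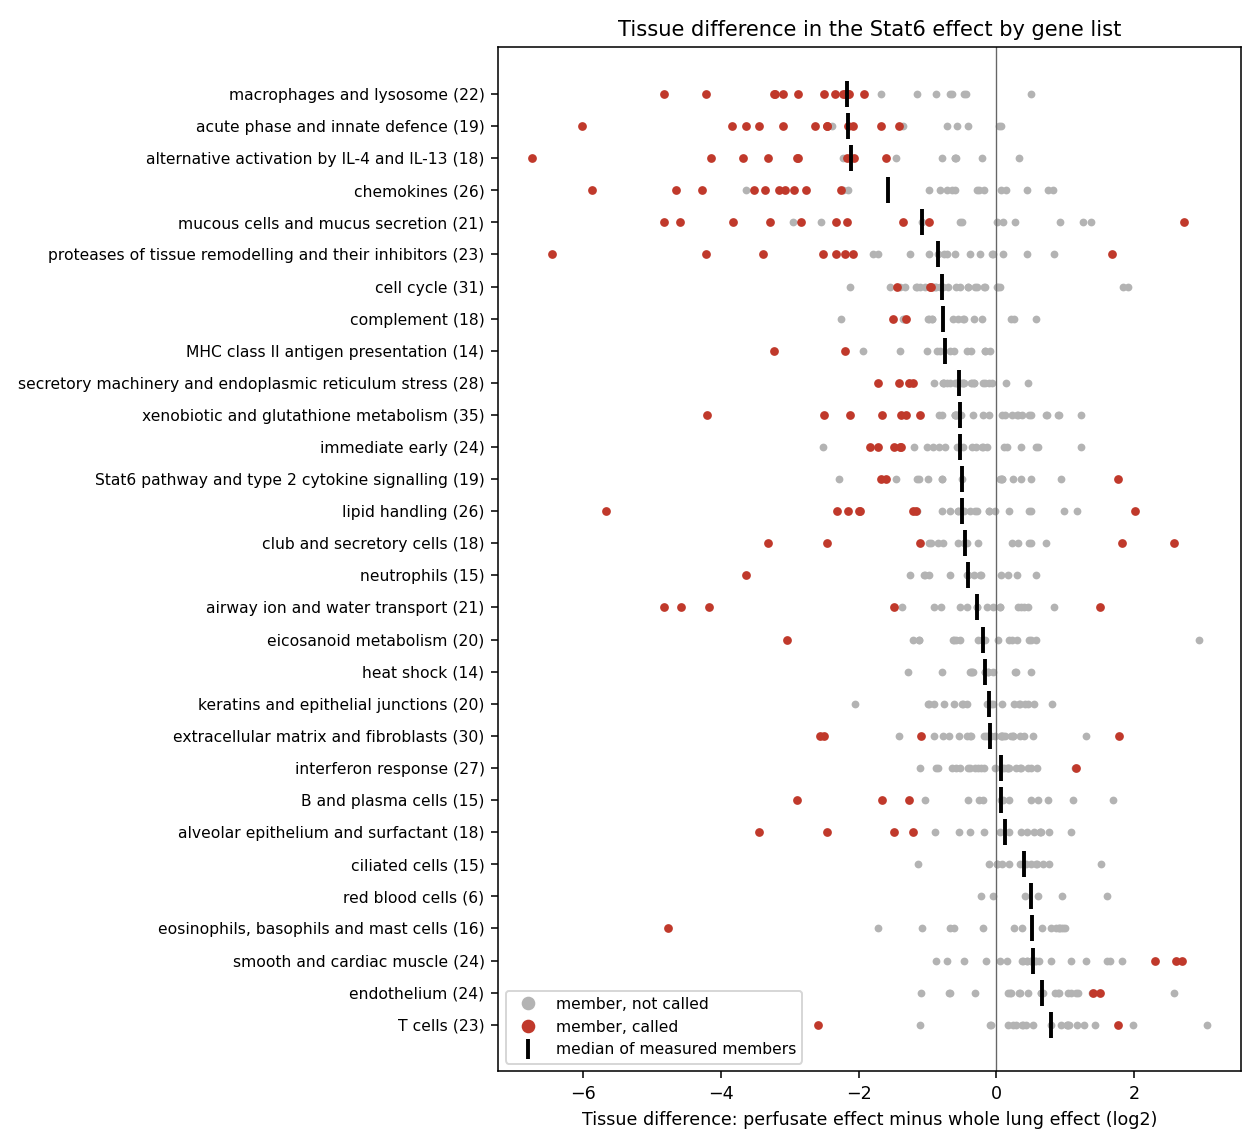
Tissue difference (perfusate effect minus whole lung effect, log2) of each measured gene in 30 lists, with called genes in red, other genes in grey, a black bar at the list's median and the number measured in brackets. Medians run from -2.16 for macrophages and lysosome to 0.79 for T cells. The lists of ciliated cells, keratins and epithelial junctions, heat shock and red blood cells hold no called gene.

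Proteases of tissue remodelling and their inhibitors gave 7 lower and 1 higher of 23, and 4 lower on the uncentred values or without the arrays of low Y-linked signal. The list includes Mmp12, Ctsk and Ctss, described above, and Plat was the higher one. The metalloproteinases Mmp19 and Adam8 rose in lung by 2.94 and 2.87, with perfusate effects of -0.45 and 0.55, and kept the call under every alternative that tested them.

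Lipid handling genes gave 7 lower and 1 higher of 26. The 7 became 4 without the arrays of low Y-linked signal and 3 on the uncentred values. Among them was cholesterol 25-hydroxylase (Ch25h), with effects of 4.95 in lung and -0.72 in perfusate, a difference of -5.67 ± 0.51 (adjusted p = 3.97e-08). The lipid droplet protein Plin2 and the lysosomal lipase Lipa rose in lung by 1.62 and 1.69, with perfusate effects of -0.36 and -0.31, and Lipa was not called for the difference on the uncentred values. Of 28 genes of the secretory machinery and endoplasmic reticulum stress, 18 rose in lung and 1 in perfusate, and 4 were lower for the tissue difference. None of the 4 was called with equal array spreads, on the uncentred values or without the arrays of low Y-linked signal. T cell genes had the highest median, 0.79. They gave 1 call in each direction among 23, Gata3 (higher) and Il7r (lower), against 1.25% higher and 3.06% lower over all probes. The Gata3 call was lost with quantile normalization and without the arrays of low Y-linked signal. The Il7r call was lost in most of the alternatives. Of 19 measured genes of the Stat6 pathway and type 2 cytokine signalling, 2 were lower (Cish and Socs3) and 1 higher (Gata3). Cish and Socs3 had differences of -1.60 and -1.68, with lung effects of 1.51 and 1.90. Both lost the call on the uncentred values and with equal array spreads. The receptor chains Il13ra1 and Il13ra2 had differences of -1.13 and -0.79 that did not pass (adjusted p = 0.198 and 0.726). Il13 had a difference of -1.15 ± 0.40 (adjusted p = 0.107). The Il13 difference was called with the replicate block in lung and with array weights. It was also called on leaving out either lung Stat6-/- replicate 2 or lung Stat6+/- replicate 6.

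The arrays of IL-13 Stat6-/- animals marked Epi+ were set beside these values. The mark is used for mice with a Stat6 transgene expressed in airway epithelium alone, and the labels say no more than the mark. These differences share the Stat6-/- arrays with the Stat6 effects, so they are given side by side and not compared. For mucus and secreted defence genes the lung differences of Epi+ minus Stat6-/- were 6.56 for Clca1, 5.41 for Slc26a4, 3.38 for Agr2, 2.61 for Muc5ac, 3.10 for Chia1 and 1.97 for Reg3g. For macrophage genes they were 0.29 for Ctsk, 0.18 for Cd68, 0.03 for Gpnmb, -0.03 for Itgax, -0.86 for Mmp12 and 1.40 for Arg1. The first 6 passed the test in lung and the last 6 did not. These genes are a selection, and calls for Epi+ were not counted over the lists. Other genes of epithelium described above went both ways in lung. Atp2a1 passed at 2.73, and Bpifa1 at -1.39 and Fxyd4 at 0.81 did not. In perfusate the differences of Epi+ were 3.74 for Clca1, 2.44 for Muc5ac, 0.16 for Agr2, -1.88 for Sftpa1, -1.32 for Hp and -3.37 for Cxcl1, of which that of Agr2 did not pass.

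Perfusate of saline-treated (PBS) animals gave a baseline, with 1 array on each of the 5 preparations. Perfusate of IL-13 Stat6+/- animals lay above it by 2.85 for Clca1 and 2.62 for Muc5ac, and below it by 3.01 for Sftpa1 (difference -3.01), 2.35 for Hp (-2.35), 2.45 for Akr1c18 (-2.45) and 1.38 for Cd36 (-1.38). All 6 passed. Stat6-/- perfusate differed from PBS in these genes by -0.91, -0.76, -0.46, 0.17, 0.34 and 0.43 in the same order, and none passed. For Arg1, Mmp12, Cd68 and Agr2, Stat6+/- perfusate differed from PBS by -0.72, 0.32, 0.32 and 0.39, and none passed. Cxcl1, which fell with the Stat6 allele in perfusate, did not pass against PBS in either genotype. Its difference from PBS was -1.29 on Stat6+/- arrays (adjusted p = 0.152) and 1.16 on Stat6-/- arrays (adjusted p = 0.282). Whole lung of PBS animals was hybridised to another platform and was not used here.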

How the data were processed

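Arrays held 2 channels, a reference and a sample, per the labels. Each spot has 1 deposited log2 ratio. No label, header or note names the scanner, background correction or normalization the authors used. The direction, sample over reference, is likely but not stated. Array medians of the deposited log2 values ran from -0.91 to 0.14, so each array was centred on its median. Spots of 1 accession were averaged, which left 18272 probes of 19152 spots. Of the spots, 15418 had 1 gene symbol in the platform annotation, 7 had several and 3727 were unlisted. A probe was tested with at least 3 values in each of the 8 groups of the 40 arrays, by limma 3.58.1 (R 4.3.3), with blocks for the reference preparation or pool within tissue and Benjamini-Hochberg adjustment over 15370 probes. A missing value was left out and none was imputed. No spot intensities were used, so no probe was filtered on background and the presence of a cell type's RNA was not read. The scripts were tested on simulated data.

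Named genes were the 15 highest and the 15 lowest called differences with 1 symbol, those called with opposite signs in both tissues, called members of the gene lists, and a set of pathway and marker genes. A gene with several probes took the one with the lowest p, and a list median took the mean over a gene's probes. Marco, Adgre1, Ccl17, Ccl22, Tgm2, Tff1, Scin, Scnn1b and Scnn1g are list members outside this rule, chosen after their values were seen. The members and lists were chosen with earlier results of these data known. Cdh5 and Xist had too few values in some groups to be tested. Alternatives were other scalings, fits, filters, variances and left-out arrays.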

Additional observations from a re-analysis of the deposited data

Results flagged for a closer look

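The Stat6 effect differed between the tissues for 662 probes by the interaction test. For 5 of the named genes every Stat6+/- array lay above every Stat6-/- array in one tissue and below in the other. The share of all probes that did so was not counted. Most named genes were chosen for a called difference on these same arrays, and that choice favours such a separation. The 5 genes were Sftpa1 (tissue difference -3.45), Ltf (-3.64) and Ppp1r3c (-2.62), lower in perfusate and higher in lung, and Cd27 (3.40) and Stra8 (3.66), higher in perfusate and lower in lung. Cd27, Ltf and Stra8 were not called in perfusate, where the effects of Ltf and Stra8 were -0.75 and 0.45. The adjusted p there was 0.105 for Cd27 and 0.371 for Ltf. Stra8 rested on 3 lung Stat6+/- arrays. Neither Cd27 nor Stra8 kept the call for the tissue difference without the arrays of low Y-linked signal. Cd27 also lost it with equal array spreads and with quantile normalization. Stra8 also lost it with a variance for each tissue and in a fit of the compared arrays alone.

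In 3 of 59 groups of 4 or 5 values 1 array stood apart from the others, a share that chance gives about as often (1 in 20). Cd27 was 3.04 on perfusate Stat6+/- replicate 6 against 0.47 to 0.89 on the rest. Mmp12 was 3.99 on lung Stat6+/- replicate 1 against 6.89 to 7.83. Septin1 was -4.01 on lung Stat6+/- replicate 4 against -1.55 to -0.98.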

How the results depend on the processing

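The counts of called probes follow, each for the tissue difference in the Stat6 effect, the Stat6 effect in perfusate and the Stat6 effect in whole lung, against 662, 239 and 2066. Uncentred values gave 373, 44 and 1742. Equal array spreads (scale normalization) gave 305, 383 and 793, and quantile normalization gave 372, 465 and 886. A fit of the 20 arrays alone gave 310, 105 and 1280, separate variances 486, 509 and 809, and no reference block 350, 99 and 1165. Array weights gave 798, 763 and 1549. Leaving out preparation 1.3 gave 458, 143 and 2014. Leaving out the arrays of low Y-linked signal gave 226, 39 and 1149, and a covariate for them gave 642, 115 and 1520. Leaving out single arrays gave 502 (without lung Stat6+/- replicate 3) to 919 (without lung Stat6+/- replicate 1) for the tissue difference, 129 to 287 in perfusate, lowest without Stat6+/- replicate 6, and 1455 to 2426 in lung. The cause of these changes was not tested. All of the 662 probes that could be tested kept their sign under each alternative. Of 140 named genes called, 53 kept the call under every alternative and left-out array that tested them, and 109 under every left-out array. Same-numbered lung arrays of different groups had correlations of -0.36 to 0.28 in their deviations from the fit. Differently numbered arrays were not set beside them, so these values cannot tell whether the numbers pair samples. The replicate block in lung gave 788, 272 and 1976, and 542 of the 788 were among the 662. Fewer than 5 arrays measured some genes, Arg1, Saa3 and Thrsp among them.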
